A study of Mus musculus with 8 samples.

Results

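The genes of mitosis, the mitotic spindle and the kinetochore were followed as a list of 48 genes, named by gene symbol on the array with aliases matched through gene identifiers. A gene counted as measured when at least 1 of its probes had a detection p-value under 0.05 on at least 4 of the 8 arrays, and its brightest such probe was used. By this rule 32 of the 48 genes were measured, of 10543 genes with a named, usable probe. The annotation used is limited to the 21765 probes of the deposited normalized table, of 45281 on the array. It gives 1 gene name to 18216 of them and none to 3541. A gene without a named probe here may thus still have one on the array. No probe bore the name of 14 genes (Bub1, Ttk, Nek2, Ccna2, Ccnb1, Ccnb2, Ube2c, Cenpe, Nuf2, Kif20a, Hmmr, Racgap1, Tacc3 and Mki67) in the annotation used, and these are not analysed here. Just outside the rule lay Pttg1 and Ect2, each detected on 2 arrays, and just inside it lay Cenph on 5 arrays and Cenpf on 6.

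Lymph nodes that drain the tumor were profiled in female C57BL/6 mice, all bearing a subcutaneous B16 melanoma, a transplanted mouse tumor line. In 4 mice the tumor, at an area of 30 to 40 mm2, was injected once with 3M-052, a TLR-7/8 agonist made to stay at the site of injection, and in 4 mice with vehicle. Nodes were taken on day 4 after the injection, 1 node sample per array, and the number of mice limits the precision of every value. A value is the log2 of the background-corrected, quantile-normalized brightness of the beads that carry a probe, so that a difference of 1 is a doubling, and levels of different probes are not compared with each other.

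In mitosis, kinases such as Cdk1, Plk1 and the Aurora kinases drive chromosome condensation and spindle assembly, and kinetochores attach each chromosome to microtubules. The spindle checkpoint holds back the anaphase-promoting complex (APC/C) until all chromosomes are attached. Transcripts of these proteins are made mostly in late cell cycle phases, so that their level in a tissue is widely read as a sign of dividing cells, and in a lymph node such cells are mainly activated lymphocytes.

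Mitosis genes were higher in nodes draining 3M-052-treated tumors than in nodes draining vehicle-treated tumors. Of the 32 measured genes, 20 passed the test as higher (limma, adjusted p under 0.05 over all 19462 probes tested) and 0 as lower, against 2.81% of all probes higher and 2.29% lower. These were 546 probes higher and 446 lower, a split of 428 and 145 with median centering of the arrays and of 570 and 298 with centering over the kept probes alone. With 1 probe per named gene the shares were 2.44% and 2.27% of 10543 genes. At an unadjusted p under 0.05 (limma), 28 were higher and 0 lower, against 1632 higher and 2339 lower of all 19462 probes. The median log2 fold change of the 32 genes was 1.09, a 2.13-fold difference, with a range of 0.19 to 1.36, while the median over all probes was -0.0098. A difference of at least 2-fold was found in 15 of the 20 genes past the test. In such bulk samples, more dividing cells and more of these transcripts per cell cannot be told apart.

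On 20 genes every 3M-052 array lay above every vehicle array, which held for 5.57% of all probes, while the reverse order, found for 7.1% of all probes, was seen for 0 genes of the list. Of these 20, 19 passed the test, along with Nusap1, whose groups overlapped, and the remaining gene with separate groups was Foxm1. The median SD between mice was 0.40 in the 3M-052 group and 0.41 in the vehicle group. For a gene with separate groups the two-sided exact permutation test gave p = 0.029, which no 4 against 4 comparison can go below. Groups share replicate numbers 1 to 4, but the labels do not say what these stand for, and pairs were taken from the data alone. The 3M-052 array was above the vehicle array of the same number in all 4 pairs for 31 genes, against 17.5% of all probes. Cdc25b was the exception. For the 20 genes with separate groups this order follows from the separation and adds nothing to it. With the replicate number as a block, 27 of the 32 genes were higher (6.33% of all probes), all 20 of the above and 7 more.

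**Figure D1:**
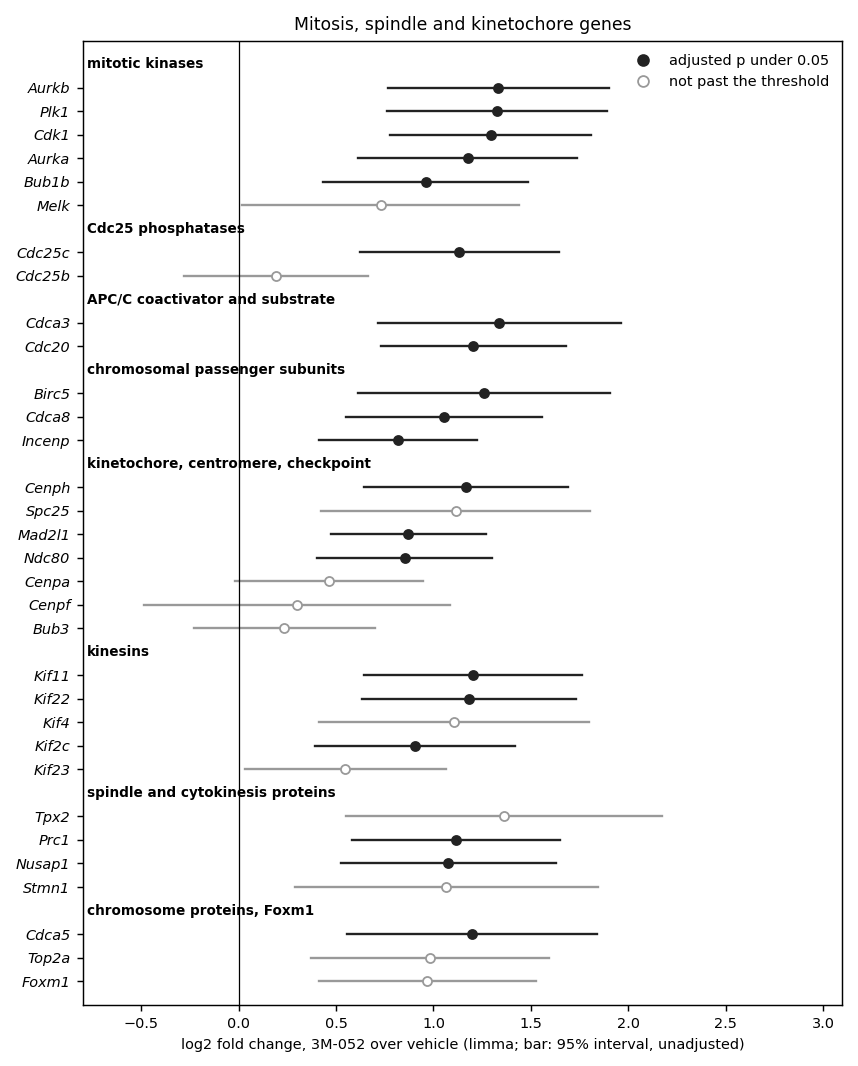
Log2 fold change, 3M-052 over vehicle, of the 32 measured genes by class (x axis), with dots for the limma estimate, bars for its unadjusted 95% interval and filled dots for an adjusted p under 0.05. All 32 dots lie above 0, between 0.19 for Cdc25b and 1.36 for Tpx2, and 20 are filled.

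Many promoters of this class hold the CHR, the cell cycle genes homology region bound by the DREAM and MuvB complexes, and CCAAT boxes bound by NF-Y. RefSeq promoter windows (GRCm38.p6, 250 bases before to 50 after the start) were found for 40 of the 48 genes, in 43 windows. The letters of the CHR (TTTGAA or TTCGAA, on either strand) were in 74.4% of these windows and in 19.2% of all 32851 windows, those of the CCAAT box (CCAAT on either strand) in 76.7% and 37.4%, and both in 67.4% and 7.5%. The CHR letters were in 77.8% of the 18 windows of genes past the test and in 90.0% of the 10 windows of measured genes not past it. The letters of both motifs can share a base. Among genes that hold the letters, Cdca8, Ndc80, Kif2c, Cenpa, Cenpf and others are not shown. The windows of Birc5, Mad2l1, Cenph and Nusap1, which passed the test, do not hold them. These 30-base stretches show the CHR letters, in capitals, of 8 genes past the test and of 3 not past it. The 3 are Cdc25b, Bub3 and Kif23, each with the smallest difference of its class. All stretches are read 5′ to 3′ on the strand of the gene. Of Cdk1 and Kif22, which hold the letters in 2 separate places, the place nearer the start is shown, and a match is a description of the letters only.
Plk1, chr7:122159453-122159482, plus strand: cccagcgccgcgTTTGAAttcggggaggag
Cdk1, chr10:69352910-69352939, minus strand: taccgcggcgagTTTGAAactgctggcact
Cdc20, chr4:118437344-118437373, minus strand: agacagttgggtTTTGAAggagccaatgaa
Cdca3, chr6:124830194-124830223, plus strand: cgtggagggaagTTTGAAactccgggcttt
Kif11, chr19:37376351-37376380, plus strand: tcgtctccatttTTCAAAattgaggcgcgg
Kif22, chr7:127042420-127042449, minus strand: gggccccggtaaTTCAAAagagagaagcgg
Prc1, chr7:80294434-80294463, plus strand: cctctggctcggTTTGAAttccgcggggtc
Cdca5, chr19:6085068-6085097, plus strand: caaggcgggcaaTTTGAAcgtttgaagcag
Cdc25b, chr2:131186943-131186972, plus strand: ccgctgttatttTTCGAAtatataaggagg
Bub3, chr7:131560315-131560344, plus strand: gagccgttggcgTTCAAAatcagccaatga
Kif23, chr9:61946780-61946809, minus strand: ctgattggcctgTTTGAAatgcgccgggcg
In the stretches of Kif11, Kif22 and Bub3 the motif is read as TTCAAA, its reverse complement. The Cdca5 stretch holds the letters a second time, in lower case, and the stretches of Cdc20, Bub3 and Kif23 also hold a CCAAT box, that of Kif23 on the other strand. The Cdc25b stretch holds TTCGAA, and the other stretches hold TTTGAA on one of the strands.

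Of the mitotic kinases, 5 of 6 measured genes were higher after 3M-052, with a median log2 fold change of 1.23. Aurkb, the catalytic subunit of the chromosomal passenger complex, had log2 levels of 9.29, 8.76, 9.64 and 8.71 in 3M-052 nodes 1 to 4, against 7.68, 7.44, 8.35 and 7.59 in vehicle nodes 1 to 4. Its groups did not overlap, the lowest 3M-052 node lying above vehicle node 3, the highest of its group. The log2 fold change of Aurkb was 1.33 (SE, the standard error, 0.26; adjusted p = 0.014, limma), a 2.52-fold difference. Plk1, which acts in mitotic entry, spindle assembly and cytokinesis, had log2 levels of 10.44, 9.97, 10.82 and 10.07 after 3M-052 and 8.90, 8.41, 9.60 and 9.09 after vehicle. For Plk1 nodes 3 were the highest and nodes 2 the lowest of both groups, with no overlap. The log2 fold change of Plk1 was 1.33 (SE 0.26, adjusted p = 0.014). For Cdk1, the kinase that starts mitosis with its cyclins, the levels were 9.72, 9.29, 9.64 and 9.45 in 3M-052 nodes and 8.14, 7.63, 8.83 and 8.33 in vehicle nodes. Every 3M-052 node was above every vehicle node, and the spread was smaller after 3M-052 (SD 0.19) than after vehicle (SD 0.50), a difference in spread that was not tested. Its log2 fold change was 1.29 (SE 0.24, adjusted p = 0.0096), a 2.45-fold difference.

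Aurka, the Aurora kinase of centrosomes and spindle poles, also passed the test (log2 fold change 1.18, adjusted p = 0.024), as did Bub1b, a kinase-like checkpoint protein that binds Cdc20 (0.96, adjusted p = 0.043). A dimmer Bub1b probe had a log2 fold change of 0.87 and did not pass (adjusted p = 0.075). Melk, a kinase made in dividing cells, had levels of 5.94, 5.71, 7.20 and 6.16 after 3M-052 and 5.60, 4.93, 5.76 and 5.81 after vehicle. Its groups overlapped, with 3M-052 node 3 far above the other 7 arrays, and the log2 fold change of 0.73 (SE 0.32) did not pass the test (adjusted p = 0.23).

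The Cdc25 phosphatases, which remove inhibitory phosphates from Cdk1, differed in their values. Cdc25c had log2 levels of 6.82, 6.33, 6.93 and 6.55 in 3M-052 nodes against 5.70, 5.04, 5.88 and 5.47 in vehicle nodes, with no overlap. The log2 fold change of Cdc25c was 1.13 (SE 0.23, adjusted p = 0.019). Cdc25b had levels of 7.24, 7.64, 7.52 and 7.16 after 3M-052 and of 7.24, 6.85, 7.63 and 7.08 after vehicle. Here the groups overlapped almost fully, and the log2 fold change of 0.19 (95% interval -0.28 to 0.66, adjusted p = 0.68) was the smallest of the list. No test of the difference between both genes was run.

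Both measured genes of the APC/C class were higher. Cdc20, the activator of the APC/C in mitosis and the target of the spindle checkpoint, had levels of 10.69, 10.36, 10.48 and 10.76 after 3M-052 and 9.22, 8.78, 9.71 and 9.77 after vehicle. All 3M-052 nodes were above all vehicle nodes, and the 3M-052 nodes lay within a narrow range (SD 0.18). The log2 fold change was 1.20 (SE 0.22, adjusted p = 0.0092, limma), the lowest adjusted p of the 32 genes by the brightest probe of each. Cdca3, an APC/C substrate that promotes mitotic entry, had levels of 10.97, 10.22, 10.10 and 10.81 in 3M-052 nodes and 9.13, 8.41, 9.58 and 9.62 in vehicle nodes. Its groups did not overlap, but 3M-052 node 3, the highest of its group for most genes, was the lowest here. The log2 fold change of Cdca3 was 1.34 (SE 0.28, adjusted p = 0.021). Of the core subunits of the APC/C, 10 were measured, 0 passed the test, and their median log2 fold change was 0.11. With 2.81% of all probes higher, 0 of 10 does not set these subunits apart from the probes at large. Of them Anapc15 had the highest value, 0.97 (adjusted p = 0.051), and the other activator, Fzr1, which serves the APC/C after mitosis, had 0.09 (adjusted p = 0.83). These subunits were set apart and Anapc15 and Fzr1 were named after their values were seen.

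The partners of Aurkb in the chromosomal passenger complex were higher in 3 of 3 cases. Birc5, which encodes survivin, had levels of 10.90, 10.05, 9.94 and 10.69 after 3M-052 and 9.07, 8.38, 9.38 and 9.71 after vehicle. The lowest 3M-052 node was above the highest vehicle node by a small margin, and the log2 fold change was 1.26 (SE 0.29, adjusted p = 0.033). Cdca8, which encodes borealin, had levels of 10.75, 10.15, 10.67 and 10.61 in 3M-052 nodes and 9.38, 8.88, 9.89 and 9.82 in vehicle nodes. Node 2 was the lowest of each group for Cdca8, and the groups were apart (log2 fold change 1.05, SE 0.23, adjusted p = 0.024). Incenp, the scaffold of the complex, had levels of 8.96, 8.85, 9.06 and 8.80 after 3M-052 and 7.95, 7.73, 8.33 and 8.38 after vehicle. The 4 values after 3M-052 were close together (SD 0.12), and the log2 fold change of 0.82 (SE 0.18, adjusted p = 0.028) was the smallest of the 3 partners and of all 20 genes past the test.

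Among kinetochore, centromere and checkpoint proteins, 3 of 7 measured genes were higher, with a median log2 fold change of 0.85. Cenph, a subunit of the inner kinetochore, had levels of 6.42, 5.62, 6.13 and 5.75 after 3M-052 and 4.82, 4.63, 5.27 and 4.53 after vehicle. It was detected on 4 of 4 3M-052 arrays but on only 1 of 4 vehicle arrays, so that most vehicle values are those of a probe near background. Cenph met the rule on detection through the group where it is high, so its log2 fold change of 1.17 (SE 0.24, adjusted p = 0.018) rests on vehicle values mostly at background, and it lay between 0.54 and 1.24 in settings other than leaving out a node. Without Cenph, 2 of 6 genes of this class and 19 of all 31 were higher. Mad2l1, the checkpoint protein that holds Cdc20 inactive, had levels of 10.37, 9.82, 10.21 and 9.91 in 3M-052 nodes and 9.28, 8.83, 9.41 and 9.31 in vehicle nodes. Spread was alike in both groups (SD 0.26 each) and the groups were apart, with a log2 fold change of 0.87 (SE 0.18, adjusted p = 0.020). Ndc80, which binds microtubules at the outer kinetochore, had levels of 8.37, 7.86, 8.63 and 8.12 after 3M-052 and 7.41, 7.12, 7.55 and 7.49 after vehicle. These did not overlap either (log2 fold change 0.85, SE 0.21, adjusted p = 0.037).

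The other kinetochore genes did not pass the test. Bub3, a checkpoint protein that stays bound to Bub1 and Bub1b, had levels of 7.85, 7.98, 8.34 and 7.97 after 3M-052 and 7.61, 7.56, 8.32 and 7.70 after vehicle. Vehicle node 3 lay above 3 of the 3M-052 nodes, and the log2 fold change was 0.23 (95% interval -0.23 to 0.70, adjusted p = 0.59). Spc25, a partner of Ndc80 in its complex, stood at a log2 fold change of 1.11 (SE 0.32, adjusted p = 0.068). Cenpa, the centromeric histone, had 0.47 (adjusted p = 0.26), and Cenpf, a large protein of the outer kinetochore, had 0.30 with a wide interval of -0.49 to 1.08 (adjusted p = 0.70).

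Of the kinesins, the motor proteins that build the spindle and move chromosomes, 3 of 5 measured genes were higher. Kif11, which pushes spindle poles apart, had levels of 8.55, 8.32, 8.83 and 8.61 in 3M-052 nodes and 7.09, 6.79, 7.96 and 7.66 in vehicle nodes. The vehicle nodes spread more widely (SD 0.53) than the 3M-052 nodes (SD 0.21), without overlap between groups, and the log2 fold change was 1.20 (SE 0.25, adjusted p = 0.021). Kif22, a chromosome-bound kinesin, had levels of 10.20, 9.66, 10.70 and 10.07 after 3M-052 and 8.76, 8.55, 9.51 and 9.09 after vehicle. Its groups were also apart (log2 fold change 1.18, SE 0.25, adjusted p = 0.021). Kif2c, which shortens microtubules at kinetochores, had levels of 9.07, 8.79, 9.62 and 8.83 after 3M-052 and 7.88, 7.90, 8.63 and 8.29 after vehicle. The groups did not overlap and the log2 fold change was 0.90 (SE 0.23), but with an adjusted p of 0.0496 Kif2c was the gene nearest to the threshold.

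Kif23, a motor of the central spindle in cytokinesis, had levels of 10.42, 9.97, 10.45 and 9.53 in 3M-052 nodes and 9.79, 9.44, 9.84 and 9.11 in vehicle nodes. Node 4 was the lowest of both groups, the groups overlapped, and the log2 fold change was 0.55 (SE 0.24, adjusted p = 0.22). Its 3 usable probes disagreed: the brightest gave that value, another 0.73 (adjusted p = 0.036) and the third 0.31 (adjusted p = 0.56). Kif4, a chromosome-bound kinesin that acts at the central spindle, had a log2 fold change of 1.11 (SE 0.32, adjusted p = 0.070).

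**Figure D2:**
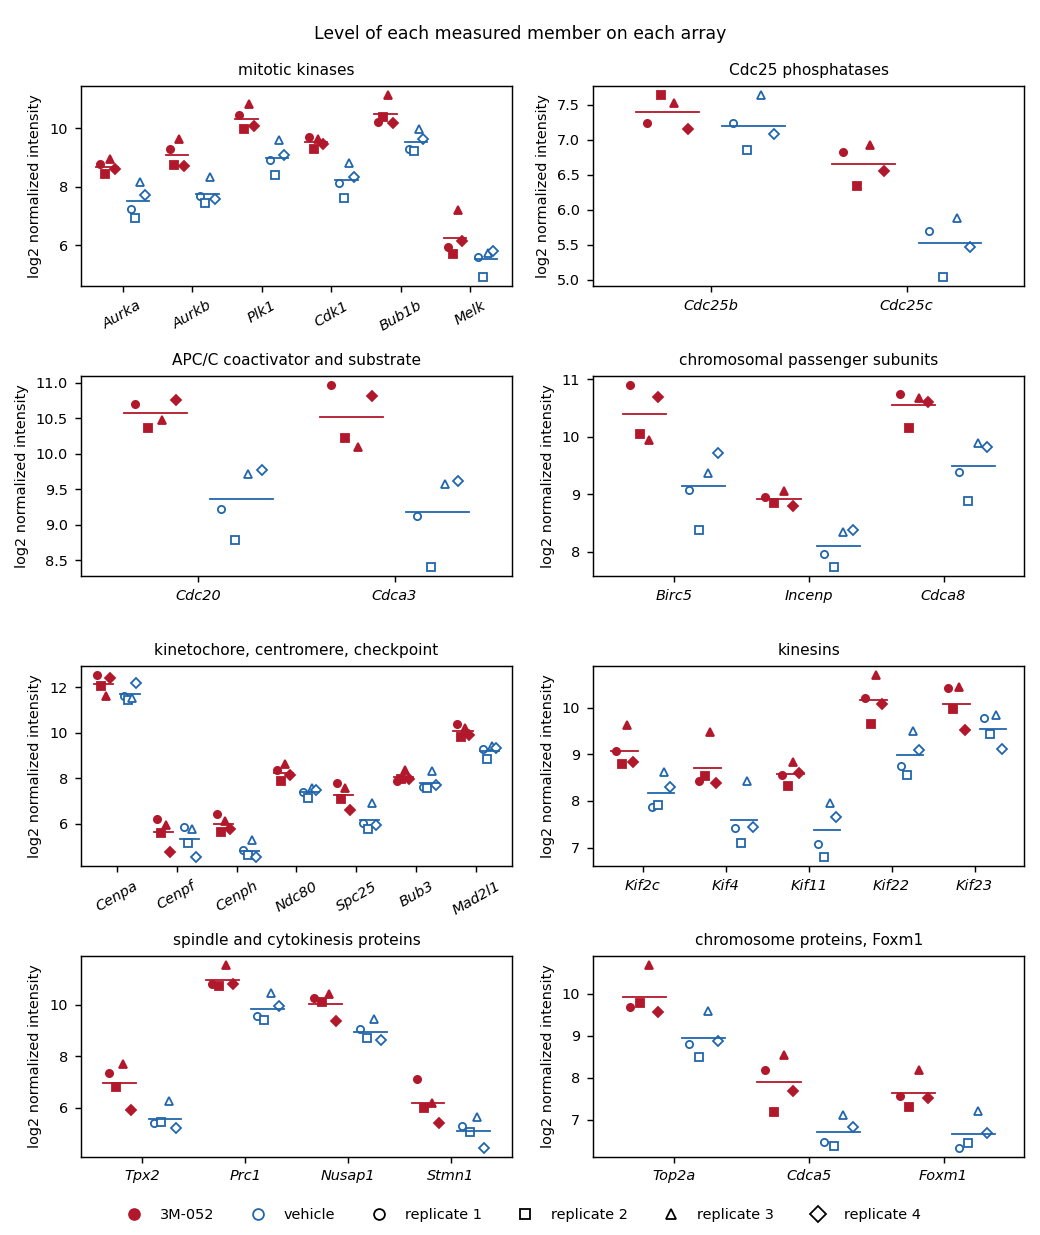
Log2 normalized intensity (y axes) of each measured gene on each array, by class, with filled red marks for 3M-052 nodes, open blue marks for vehicle nodes, a symbol shape per replicate number and lines for group means. Most genes, such as Cdk1 and Cdc20, show separate groups, and scales differ between panels. The groups overlap for Cdc25b, Bub3, Cenpf, Kif23, Melk, Cenpa, Spc25, Kif4, Tpx2, Nusap1, Stmn1 and Top2a.

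Among spindle and cytokinesis proteins, 2 of 4 measured genes were higher. Prc1, which bundles microtubules of the central spindle, had levels of 10.80, 10.72, 11.52 and 10.79 after 3M-052 and 9.56, 9.42, 10.44 and 9.95 after vehicle. Node 3 stood above the rest in both groups, which did not overlap, and the log2 fold change was 1.12 (SE 0.24, adjusted p = 0.024). Nusap1, which bundles spindle microtubules near chromosomes, had levels of 10.27, 10.11, 10.41 and 9.35 in 3M-052 nodes and 9.06, 8.72, 9.43 and 8.62 in vehicle nodes. Vehicle node 3 lay slightly above 3M-052 node 4, and the gene passed limma's test (log2 fold change 1.08, SE 0.25, adjusted p = 0.032) with an exact permutation p of 0.057. Stmn1, which destabilizes microtubules, had levels of 7.14, 5.99, 6.17 and 5.41 after 3M-052 and 5.30, 5.05, 5.63 and 4.46 after vehicle. With 3M-052 node 1 high and both nodes 4 low, the groups overlapped and the test was not passed (log2 fold change 1.07, SE 0.35, adjusted p = 0.11). Tpx2, the spindle assembly factor that activates Aurka, had the highest log2 fold change of all 32 genes, 1.36, but also an SE of 0.37, and did not pass (adjusted p = 0.059).

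Of the chromosome proteins and the regulator Foxm1, 1 of 3 measured genes passed. Cdca5, which encodes sororin, the protein that keeps sister chromatids joined until anaphase, had levels of 8.19, 7.19, 8.55 and 7.69 after 3M-052 and 6.48, 6.38, 7.12 and 6.84 after vehicle. The lowest 3M-052 node was just above the highest vehicle node (log2 fold change 1.20, SE 0.29, adjusted p = 0.039). Foxm1, a transcription factor of late cell cycle genes, had levels of 7.56, 7.30, 8.19 and 7.53 in 3M-052 nodes and 6.34, 6.46, 7.21 and 6.70 in vehicle nodes. Its groups did not overlap, and its log2 fold change of 0.97 (SE 0.25) missed the threshold narrowly (adjusted p = 0.051). Top2a, the topoisomerase that untangles chromosomes, had 0.98 (adjusted p = 0.069). Aurka, Bub1b, Cenpa, Cenpf, Spc25, Kif4, Tpx2 and Top2a complete the 32 measured genes and lay outside the rule for genes given array by array.

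The genes moved together between arrays of 1 group as well, where a difference between mice and one between arrays cannot be told apart. Vehicle node 3 was the highest vehicle node for 25 of the 32 genes and vehicle node 2 the lowest for 24. In the 3M-052 group node 3 was the highest for 20 genes and node 1 for 10, while node 2 was the lowest for 16 and node 4 for 12. The mean over the 32 genes was 9.00, 8.60, 9.15 and 8.62 in 3M-052 nodes 1 to 4, and 7.78, 7.46, 8.31 and 7.87 in vehicle nodes 1 to 4. With median centering instead these means were 8.94, 8.71, 9.37 and 8.32, and 7.84, 7.55, 8.36 and 7.59. The lowest 3M-052 node was then node 4 rather than node 2. Both arrays numbered 4 had low mean intensities before normalization, 331 for 3M-052 and 306 for vehicle, against 398 to 461 on the others. A smaller set went another way: Birc5, Cdca3 and Cenpa were lowest in 3M-052 node 3, and these genes along with Cdc20, Incenp and Melk were highest in vehicle node 4. This order of nodes is a description, and since the genes share the arrays it was not tested.

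**Figure D3:**
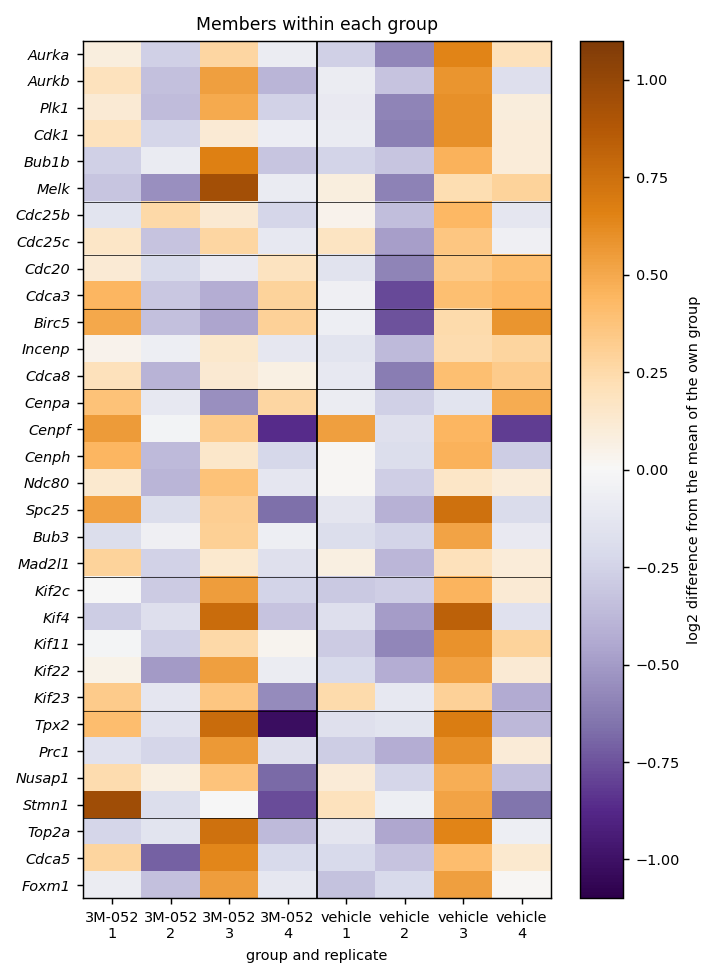
Difference of each array from the mean of its own group (color, log2 scale; brown above, purple below) for the 32 genes, with 3M-052 nodes 1 to 4 at left and vehicle nodes 1 to 4 at right, and thin lines between classes. Vehicle node 3 is above its group mean for most genes and vehicle node 2 below it, and 3M-052 node 4 stands out as low for Tpx2, Cenpf, Stmn1, Nusap1 and Spc25.

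Other genes of the same process were also higher, in a list chosen with earlier results of these data known. Of 97 further mitosis genes listed, 74 were measured, and 68 had a log2 fold change above 0. Past the test, 22 were higher and 0 lower (limma, adjusted p under 0.05), against 2.81% and 2.29% of all probes. At an unadjusted p under 0.05 (limma), 43 were higher and 0 lower, and the median log2 fold change was 0.73. The block by replicate number gave 42 higher, against 6.33% of all probes. Oip5, a factor that loads Cenpa onto centromeres, had levels of 7.84, 6.80, 7.86 and 7.30 after 3M-052 and 5.98, 5.44, 5.67 and 6.03 after vehicle. Its groups were apart and its log2 fold change of 1.67 (adjusted p = 0.0050) exceeded that of every listed gene above. Sgo1, which protects centromeric cohesion, followed with 1.46 (adjusted p = 0.014), then Cenpm, of the inner kinetochore, with 1.43 (0.024) and Ska3, of the outer kinetochore, with 1.41 (0.019).

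DNA replication, the step that precedes mitosis, showed 10 of 36 measured genes higher, of 40 listed, against 2.81% of all probes. The median log2 fold change of the 36 genes was 0.71. With the block 24 were higher, against 6.33% of all probes. This list, too, was chosen with earlier results of these data known. Cdc45, part of the replicative helicase, had 1.49 (adjusted p = 0.0059), and Rrm2, a subunit of ribonucleotide reductase, 1.37 (0.011). Gins2, of the same helicase as Cdc45, had 1.34 (0.045) and Mcm10, which helps to start replication, 1.27 (0.029).

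Markers of other cell types differed between the same nodes, and the values stand here beside the mitosis genes. Plasma cell markers were higher for 8 of 10 genes, and their mean log2 level ranged from 8.98 to 9.60 in 3M-052 nodes and from 7.81 to 8.26 in vehicle nodes. T cell markers were lower for 7 of 11 genes, with mean levels of 10.3 to 10.7 after 3M-052 and 11.1 to 11.5 after vehicle, though with either median centering 0 of 11 passed (limma; 8 and 5 lower at an unadjusted p under 0.05). B cell markers were past the test for 0 of 9 genes (limma; 1 higher and 1 lower at an unadjusted p under 0.05), at 10.3 to 10.5 in both groups, and germinal center markers for 0 of 5 (0 higher and 1 lower unadjusted), at 8.52 to 8.84 and 8.59 to 8.79. Bright B and T cell markers on every array fit the label of a lymph node. Macrophage and monocyte markers were higher for 1 of 7 genes, keratinocyte markers past the test for 0 of 3 (2 lower unadjusted), and erythroid markers lower for 2 of 4. The part of plasma and T cells in the result for the mitosis genes was not tested.

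Fat cell markers were past the test for 0 of 8 genes (limma), with 4 lower at an unadjusted p under 0.05. Their mean level ranged from 5.74 to 7.69 in 3M-052 nodes, while vehicle nodes 1, 2 and 3 stood at 8.52, 9.37 and 9.62 and vehicle node 4 at 6.55. With this level as a covariate the median log2 fold change of the mitosis genes was 0.98. In that fit 0 of 32 passed limma's test, and 0.796% of all probes were higher. At an unadjusted p under 0.05 in the same fit, 26 of the 32 were higher, against 921 of all 19462 probes. Melanocyte markers, which the tumor cells carry, stood at 4.84 to 5.84 in 3M-052 nodes and at 5.36 to 6.14 in vehicle nodes 1, 2 and 4, with vehicle node 3 apart at 9.84, and 0 of 4 passed the test (2 lower unadjusted). Without vehicle node 3, which also had the highest mitosis levels of its group, 23 of 32 genes were higher. Over the fits that leave out 1 node, the number of all 19462 probes higher ranged from 283 to 670. The part of tumor material in these counts was not tested.

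**Figure D4:**
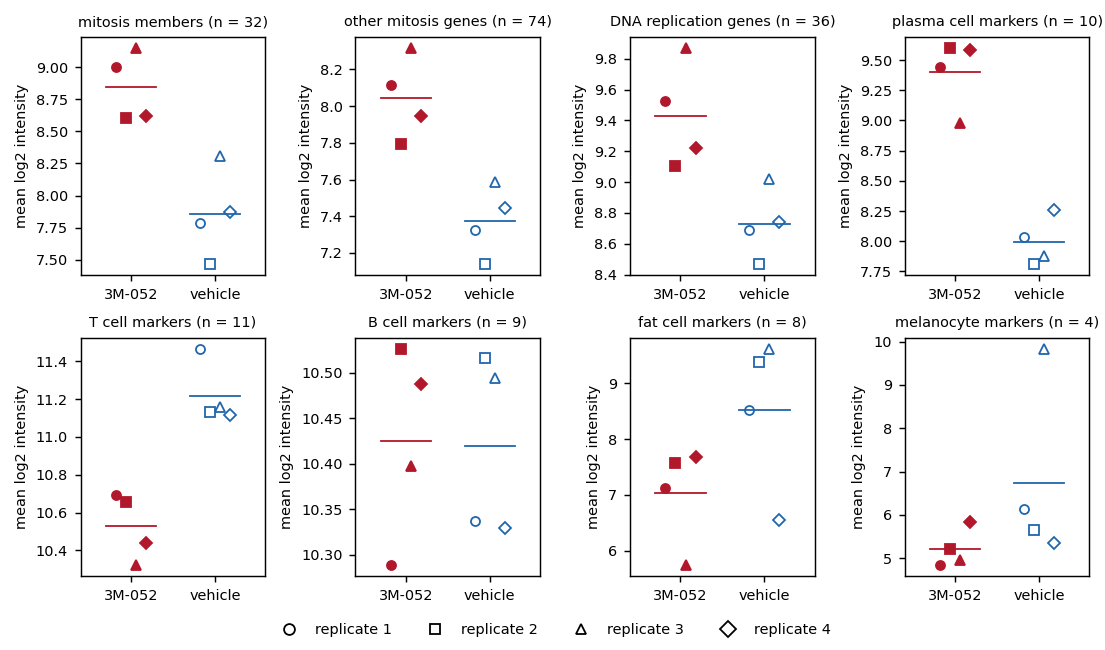
Mean log2 intensity per array (y axes) of the mitosis genes and of 7 comparison lists, 3M-052 nodes at left and vehicle nodes at right in each panel, with a symbol shape per replicate number and lines for group means. As drawn, with quantile normalization, the first 4 lists are higher in every 3M-052 node than in every vehicle node. T cell markers are lower, and vehicle node 3 stands apart in melanocyte markers. With median centering instead, 3M-052 node 4 lay below vehicle node 3 for the mitosis genes (8.32 and 8.36). The same held for other mitosis genes (7.61 and 7.65) and DNA replication genes (8.94 and 9.05).

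Direction held in all cases: all 52 usable probes of the 32 genes, and all 668 values of these genes in 21 other settings of the analysis, were above 0. Among all 19462 probes, 9465 were above 0 as reported. Some settings change only the test, the filter or the block and so keep the reported log2 fold change, and all reuse the same 8 arrays. Calls were less stable. Median centering of the arrays instead of quantile normalization left 11 genes past the threshold (2.2% of all probes), and such centering over the kept probes alone, added after seeing the data, gave 21 (2.93%). Leaving out 3M-052 node 1 left 2 of the 32 genes past limma's threshold, leaving out vehicle node 1 also 2, and vehicle node 2 left 3. In these fits 283, 286 and 287 of all 19462 probes were higher, against 546 as reported. Cdc20 and Cdk1 passed in all 8 fits that leave out 1 node, with adjusted p values up to 0.042 for Cdc20 and 0.045 for Cdk1. Unpaired Student tests, named by the methods of the study, passed 0 genes after adjustment and 26 before it. By these tests 118 of all 19462 probes were higher after adjustment and 1486 before it.

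**Figure D5:**
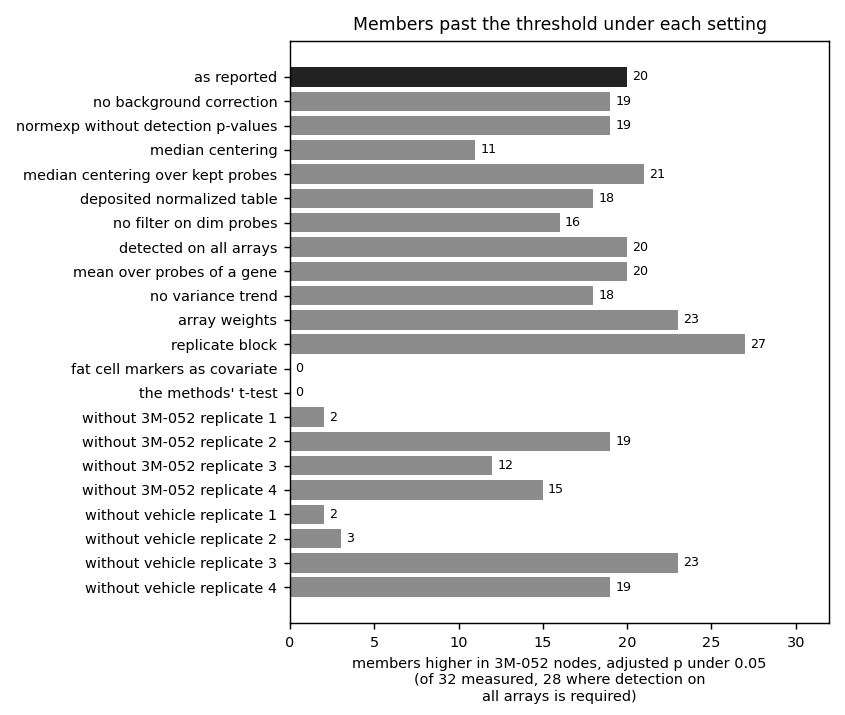
Number of mitosis genes higher in 3M-052 nodes at an adjusted p under 0.05 (x axis), under the reported setting (black bar) and 21 others (gray bars). The reported count is 20, and counts range from 0 with the fat cell markers as a covariate or with the t-test to 27 with the replicate block.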

How the data were processed

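RNA was extracted with the RNAqueous kit, amplified in rounds of the Eberwine procedure and hybridized to Illumina mouse Ref-6 bead arrays. One label calls the RNA that of tumors, while the other labels and the methods name draining lymph nodes, which is used here. The authors deposited, for 45281 probes per array, the scanner's intensity summarized with GenomeStudio and a detection p-value against negative control beads. They also deposited a table of normalized intensity for 21765 probes, normalized by an unstated method, which served as an alternative. Detected probes numbered 17817 to 19773 on 3M-052 arrays and 19094 to 20315 on vehicle arrays, with mean intensities of 331 to 461 and 306 to 418. Array 4 had the lowest mean intensity of each group.

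The function neqc of limma 3.58.1 (R 4.3.3, offset 16) corrected the background from the detection p-values, quantile normalized the arrays and took log2. A probe was kept when detected at p under 0.05 on 4 or more arrays (19462 probes, 16414 of them named through the platform annotation). The 3M-052 and vehicle groups were compared by limma's lmFit and eBayes (trend in the variance), adjusting by Benjamini-Hochberg over all kept probes, and single genes also by a two-sided exact permutation test. The procedure was also run on simulated data in which each probe was drawn independently. That setting lacks the differences between arrays that the mitosis genes share, so it does not show how stable their calls are. The genes and lists were chosen with earlier results of these data known. Values in every array are given, in each class, for up to 3 genes with the largest difference past the threshold and the gene with the smallest, and up to 4 genes are named from each other list. The labels do not say what replicate numbers stand for. Deviations of same-numbered arrays from their group means correlated at 0.19, 0.43, 0.25 and 0.57, each over the criterion of 0.1. The highest correlation with an array of another number was 0.10, 0.13, 0.13 and -0.27, so that the criterion alone does not set pairs apart. The numbers were taken as pairs on the evidence of the data alone, and a blocked fit is given beside the counts it moves. Gene names of the annotation follow GRCm38.p6 symbols.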

Additional observations from a re-analysis of the deposited data

Results flagged for a closer look

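In 3 of 88 groups of 4 nodes examined, 1 node lay far from the other 3, measured as its gap to the nearest of them over the whole range of the group and compared with Dixon's critical value, and chance alone marks about 1 in 20 such groups. In the 3M-052 group the highest node, node 3, was far above the others for Kif4 (gap over range 0.863) and for Prc1 (0.902). The mean of the T cell markers was far higher in vehicle node 1 than in the other vehicle nodes (0.884).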

How the results depend on the processing

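The count of mitosis genes higher was 20 as reported. It was 11 with median centering, 0 with the fat cell covariate and 0 with the methods' t-test, and 2 to 23 when 1 node was left out, while the count lower was 0 to 0. The median log2 fold change stayed within 0.97 to 1.25 when 1 node was left out. Without 3M-052 node 3 the count was 12 (498 of all 19462 probes higher), and without 3M-052 node 4 it was 15 (439 of all probes). Of all probes, 546 were higher and 446 lower. The numbers higher were 838 with array weights, 1232 with the replicate block, 155 with the fat cell covariate, 118 with the t-test and 283 to 670 without 1 node. The numbers lower were 145 with median centering, 255 without a filter on dim probes, 869 with array weights, 1499 with the replicate block, 27 with the fat cell covariate, 98 with the t-test and 118 to 683 without 1 node. Other mitosis genes numbered 22 higher, against 10 with median centering, 42 with the replicate block, 0 with the fat cell covariate, 0 with the t-test and 2 to 24 without 1 node, with 0 to 0 lower. DNA replication genes numbered 10 higher, against 24 with the replicate block, 0 with the fat cell covariate, 0 with the t-test and 2 to 10 without 1 node. Median centering over the kept probes alone, added after seeing the data, gave 21 mitosis genes, the 20 reported and Top2a. The cause of these shifts was not tested. Pairing by the replicate block ended no call among the mitosis genes. Over single mitosis genes, leaving out a node kept 175 verdicts, ended 73 calls and added 8, and other settings kept 339, ended 60 and added 13. Signal limits Cenph, Cenpf, Melk and Stmn1, which were not detected on every array, and 4 mice per group limit all values.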
